A study of Mus musculus with 8 samples.

Results

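The enzymes that make deoxynucleotides and thymidylate, the building blocks of DNA, were described in splenic B cells with and without a B cell deletion of Umps. They were 9 genes, chosen by name (Rrm1, Rrm2, Rrm2b, Tyms, Dut, Dctd, Dtymk, Shmt1 and Tk1), of 49315 features measured by RNA sequencing of poly(A)-enriched RNA. The 4 UMPS_BKO samples were total B cells isolated from spleens of Fc𝛾RIIB-/- mice with UMPS deleted in B cells. The 4 control samples came from Fc𝛾RIIB-/- mice that carried CD23Cre, a Cre recombinase named after a B cell surface receptor. All mice were 4 months old and were labelled as lacking the inhibitory Fc receptor, a background known for spontaneous lupus-like autoimmunity. Its gene, Fcgr2b, was nevertheless above 0 in every library, at 9.54, 2.18, 2.28 and 2.40 TPM in UMPS_BKO and at 9.56, 12.6, 16.8 and 8.42 TPM in controls (124 to 1039 recovered reads). The labels do not say which exons the knockout allele lacks, and a total over all exons does not check it. The labels name the Cre line for the controls alone, so which promoter drives the deletion in UMPS_BKO mice is not known from them. Nothing says that each sample came from a separate mouse, so p-values measure the spread between samples, which may be technical.

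Ribonucleotide reductase removes an oxygen from ribonucleotides and so makes every deoxynucleotide. Its large subunit is Rrm1, and its small subunit is Rrm2 in cycling cells or the p53-induced Rrm2b in resting and damaged cells. Thymidylate is then made from deoxyuridylate, which Dut and Dctd supply and Tyms methylates with a carbon that Shmt1 can provide. Tk1 salvages thymidine, and Dtymk carries thymidylate from both routes towards dTTP. Umps makes uridylate, from which the pyrimidine members of this pool descend, and germinal centre B cells divide fast and draw heavily on it.

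All 9 genes were found, and 8 were tested (TPM of at least 1 in at least 4 libraries). Dctd did not reach that level. None of the 8 passed the test in either direction (limma, adjusted p under 0.05), where 0.0934% of the 10708 genes tested fell and 0.0374% rose. At an unadjusted p under 0.05, 3 of the 8 were lower in UMPS_BKO (Dut, Rrm2 and Dtymk), against a background of 16.4%, and none was once libraries were scaled by their median ratio. The groups overlapped for all 9 genes, whereas all UMPS_BKO libraries lay below all controls for 4.81% of the genes tested and above them for 0.504%. Each of the 8 genes had a negative difference, as had 84.3% of all genes, and after scaling each still had, as had 57.5% of all genes. Their median log2 difference was −1.50 beside −0.90 for all genes on the deposited TPM scale, and −0.73 beside −0.15 after scaling. The 95% intervals of the 8 log2 differences reached down to −5.02 (Dut) and up to 0.92 (Tk1), so a p above the threshold does not show equal levels. The calls over all genes were 10 lower and 4 higher, and 6 lower and 4 higher after scaling. In bulk RNA, fewer cells of a type and less RNA per cell cannot be told apart.

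The libraries differed in ways that touch every value below. Recovered depth was 10592283 to 28528547 reads in UMPS_BKO and 5809001 to 18841175 in controls. Umps stood at 5.99, 1.05, 13.6 and 2.16 TPM in UMPS_BKO replicates 1 to 4 and at 16.1, 35.1, 18.6 and 8.98 TPM in controls, and its log2 difference of −1.88 ± 0.76 (SE) did not pass (limma, adjusted p = 0.283). The groups overlapped for Umps, and the labels do not say which exons were removed. All 16 pan-B cell markers were above 0 in all 8 libraries, at a mean log2(TPM + 1) of 8.30, 6.06, 6.98 and 4.62 in UMPS_BKO and 7.48, 8.54, 8.96 and 8.51 in controls. Of the genes tested, 30.1% were listed at 0 in UMPS_BKO replicate 2, and 1.59% to 15.9% in the other libraries. Mitochondrial transcripts took 8.42%, 19.2%, 18.5% and 17.2% of TPM in UMPS_BKO and 9.12%, 8.22%, 5.33% and 8.88% in controls. Ribosomal RNA-like transcripts took 44.7%, 60.5%, 48.3% and 37.6% in UMPS_BKO and 60.3%, 5.42%, 10.5% and 35.3% in controls. The mitochondrial share was thus highest in UMPS_BKO replicates 2, 3 and 4, and its part in the lower values of the 9 genes was not tested. A pair of controls stood apart: replicate 2, with 4.33% of its TPM in hepatocyte markers, and replicate 3, with 1.33%. In these, 8 and 10 of 11 skeletal muscle markers were at 0. Muscle markers took 14.01% of TPM in UMPS_BKO replicate 4 and were all above 0 in the 6 libraries other than those 2 controls.

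**Figure D1:**
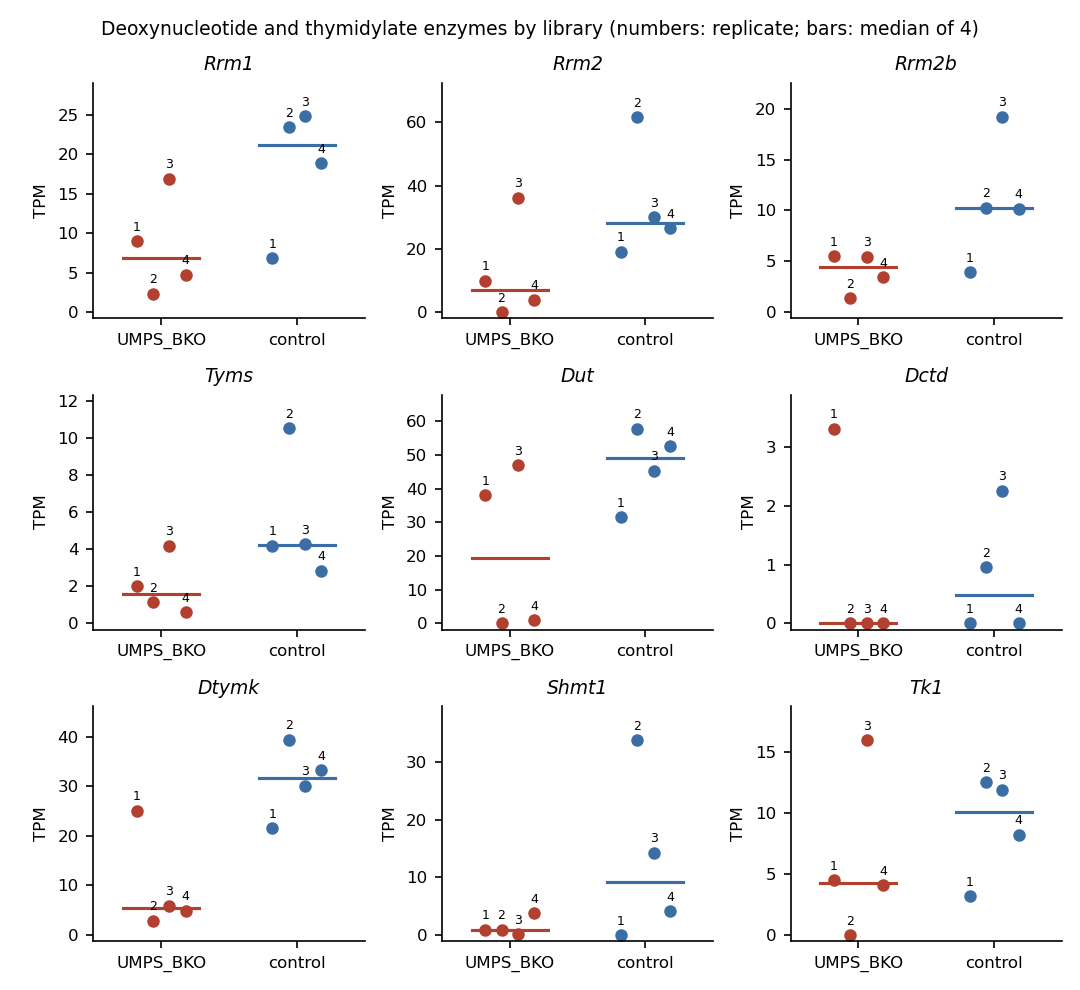
Each panel shows 1 gene, with TPM on the vertical axis, 1 numbered point per replicate and a bar at the median of 4 libraries. The groups overlap in every panel, and UMPS_BKO replicate 3 lies near or above the controls for Rrm2, Dut and Tk1 but not for Dtymk (5.87 TPM).

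The large subunit of ribonucleotide reductase, Rrm1 (GRCm38 chromosome 7, 102441695 to 102469771, plus strand), was at 9.02, 2.34, 16.9 and 4.75 TPM in UMPS_BKO and at 6.81, 23.5, 24.8 and 18.9 TPM in controls. UMPS_BKO replicates 2 and 4 lay below every control, and control replicate 1 was close to UMPS_BKO replicate 1. On the log2 scale Rrm1 differed by −1.21 ± 0.71 (SE, n = 4 per group; adjusted p = 0.341, limma), and by −0.35 after scaling. Between 253 and 2475 recovered reads stood behind each value.

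The small subunit of dividing cells, Rrm2 (chromosome 12, 24708241 to 24714146, plus strand), was at 9.88, 0, 36.1 and 3.81 TPM in UMPS_BKO and at 19.02, 61.6, 30.02 and 26.5 TPM in controls. UMPS_BKO replicates 1, 2 and 4 lay below all controls, while replicate 3 lay above 3 of the 4. This gave a log2 difference of −2.28 ± 0.96 (SE, n = 4 per group; adjusted p = 0.283, limma), and of −1.63 after scaling. Replicate 2 held no recovered read of the gene, which allows up to 0.110 TPM for counting error alone, and replicate 3 held 1330 reads. Without UMPS_BKO replicate 3 the difference was −3.10, and without replicate 2 it was −1.37.

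Rrm2b, the small subunit that p53 induces and that serves repair and mitochondrial DNA (minus strand of chromosome 15, 37923952 to 37961318), was at 5.51, 1.34, 5.42 and 3.41 TPM in UMPS_BKO. In controls it was at 3.93, 10.3, 19.2 and 10.2 TPM. Control replicate 1 lay within the UMPS_BKO range, and the other controls lay above it. After scaling, control replicate 2 (5.69) also lay within that range, below UMPS_BKO replicate 3 (7.08). The means were 3.92 ± 1.97 TPM in UMPS_BKO and 10.9 ± 6.30 TPM in controls (SD, n = 4 each), with a log2 difference of −1.22 ± 0.69 (SE; limma, adjusted p = 0.332) and −0.42 after scaling.

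Within a library the small subunits can be set against Rrm1, on the same length-normalized scale. Rrm2 TPM per Rrm1 TPM was 1.10, 0, 2.14 and 0.802 in UMPS_BKO and 2.79, 2.63, 1.21 and 1.41 in controls. Rrm2b per Rrm1 was 0.611, 0.575, 0.320 and 0.718 in UMPS_BKO and 0.577, 0.438, 0.774 and 0.539 in controls. Both ratios overlapped between the groups. The ratio with Rrm2 was at or above 1.21 in every control and below that in UMPS_BKO replicates 1, 2 and 4, and the ratio with Rrm2b lay between 0.320 and 0.718 in UMPS_BKO and between 0.438 and 0.774 in controls.

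**Figure D2:**
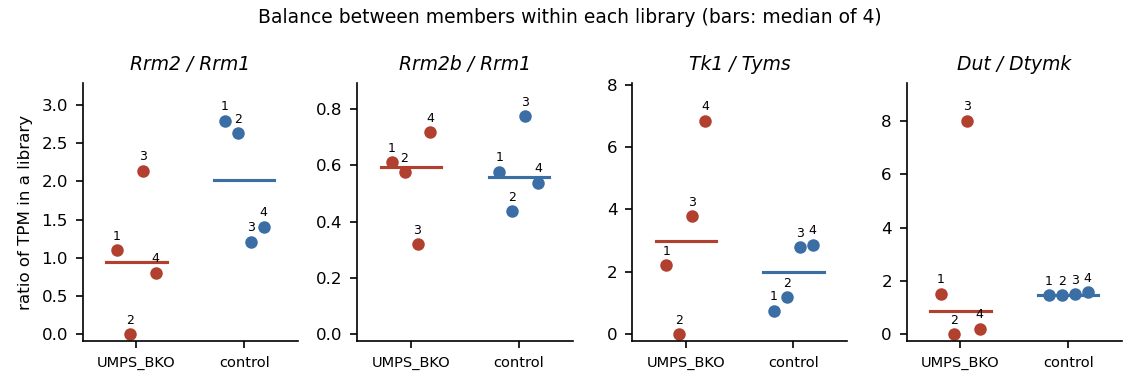
Each panel shows the ratio of 2 members' TPM within a library, with numbered replicates and a bar at the median of 4 libraries. Dut per Dtymk lies between 1.46 and 1.58 in all 4 controls and spreads from 0 to 8.0 in UMPS_BKO.

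Dut, which destroys dUTP and thereby yields the substrate of thymidylate synthase (chromosome 2, 125247190 to 125258608, plus strand), was the most abundant member by median in both groups. It was at 38.1, 0, 47.0 and 1.02 TPM in UMPS_BKO and at 31.4, 57.8, 45.3 and 52.6 TPM in controls. UMPS_BKO replicates 1 and 3 lay inside the control range, and replicates 2 and 4 were at or near 0. Dut differed by −2.57 ± 1.13 on the log2 scale (SE, n = 4 per group; adjusted p = 0.283, limma), and by −1.96 after scaling, with an interval of −4.54 to 0.61. Recovered reads were 1725, 0, 1503 and 39 in UMPS_BKO and 962, 810, 269 and 1373 in controls. No read in replicate 2 allows up to 0.127 TPM.

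Dctd, which deaminates dCMP to the same substrate (chromosome 8, 48099092 to 48153233, plus strand), was listed at 3.32 TPM in UMPS_BKO replicate 1 and at 0 in the other three UMPS_BKO libraries. In controls it was at 0, 0.957, 2.26 and 0 TPM. Neither group had more than 1 library at or above 1 TPM, so no test was made. The 3.32 TPM rested on 213 reads, whereas the highest control value rested on 19.

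Thymidylate synthase, Tyms (minus strand of chromosome 5, 30058202 to 30073617), was at 2.02, 1.14, 4.20 and 0.592 TPM in UMPS_BKO and at 4.19, 10.5, 4.27 and 2.85 TPM in controls. On this scale UMPS_BKO replicate 3 lay among the controls and the others lay below them. After scaling, UMPS_BKO replicate 2 (2.39) lay above control replicates 3 and 4 (2.09 and 2.08). The means were 1.99 ± 1.59 and 5.46 ± 3.45 TPM in UMPS_BKO and controls (SD, n = 4 each). Tyms differed by −1.13 ± 0.66 on the log2 scale (SE; adjusted p = 0.339, limma), and by −0.47 after scaling.

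Shmt1, the cytosolic serine hydroxymethyltransferase that loads folate with a carbon for Tyms (minus strand of chromosome 11, 60788104 to 60811718), was at 0.902, 0.917, 0.116 and 3.75 TPM in UMPS_BKO and at 0, 33.8, 14.3 and 4.16 TPM in controls. The highest values were those of control replicates 2 and 3, the libraries with hepatocyte markers, and the liver is a known site of Shmt1 expression. In control replicate 1 the gene had no recovered read, and hepatocyte markers were at 0 for 10 of 11 genes. Shmt1 differed by −1.79 ± 0.99 on the log2 scale (SE; adjusted p = 0.325, limma), and by −0.99 after scaling. With array weights, which called 17.8% of all genes lower, Shmt1 passed (adjusted p = 0.0378, limma; log2 difference −3.25), and its adjusted p lay between 0.0378 and 1.00 across settings that gave a value. Without control replicates 2 and 3 it did not reach the level for testing. The part of hepatocyte RNA in the control values was not tested.

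Dtymk, the thymidylate kinase (minus strand of chromosome 1, 93792576 to 93801934), was at 25.1, 2.90, 5.87 and 4.88 TPM in UMPS_BKO and at 21.6, 39.4, 30.1 and 33.2 TPM in controls. UMPS_BKO replicates 2, 3 and 4 lay far below all controls, and replicate 1 lay just above the lowest control. The means were 9.68 ± 10.3 TPM in UMPS_BKO and 31.1 ± 7.43 TPM in controls (SD, n = 4 each). Dtymk differed by −1.97 ± 0.68 on the log2 scale (SE; adjusted p = 0.283, limma), with the smallest unadjusted p of the members at 0.0130, and by −1.12 after scaling. It passed without UMPS_BKO replicate 1 (adjusted p = 0.0497, limma; log2 difference −2.54), where 2.8% of all genes were called lower, and with array weights (adjusted p = 0.0325, limma). Across the alternatives its adjusted p lay between 0.0325 and 1.00. With UMPS_BKO replicate 1 as the only library of its group the difference was −0.27. That library had the highest pan-B cell mean of UMPS_BKO (8.30, against 4.62 to 6.98 in the others), and the part of B cell content was not tested.

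Thymidine kinase, Tk1, the salvage enzyme of S phase (minus strand of chromosome 11, 117815526 to 117826092), was at 4.49, 0, 15.9 and 4.05 TPM in UMPS_BKO and at 3.15, 12.5, 11.9 and 8.19 TPM in controls. UMPS_BKO replicate 3 was the highest of all 8 libraries, and control replicate 1 lay below 3 of the 4 UMPS_BKO libraries. Tk1 differed by −0.95 ± 0.87 on the log2 scale (SE; adjusted p = 0.493, limma), by −0.33 after scaling and by −0.21 without UMPS_BKO replicate 2. Tk1 per Tyms, salvage against synthesis of thymidylate, was 2.22, 0, 3.79 and 6.84 in UMPS_BKO and 0.752, 1.18, 2.78 and 2.87 in controls, with overlapping groups. Where strand was not used in counting, 83 exonic bases of Tk1 overlap Afmid and 184 of Shmt1 overlap Smcr8 on the other strand, so those reads are uncertain.

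**Figure D3:**
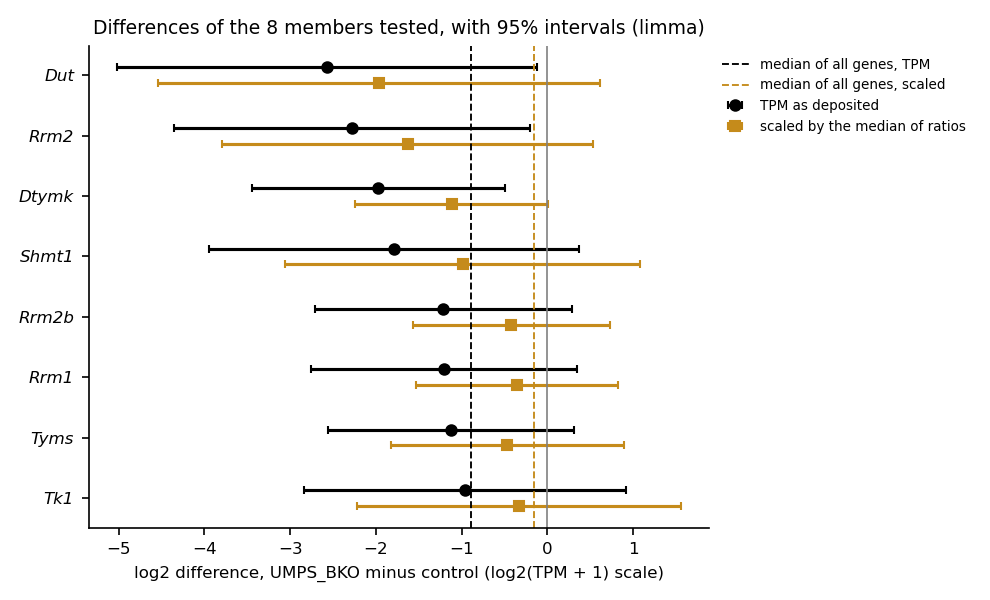
Log2 differences (UMPS_BKO minus control) of the 8 genes tested are shown with 95% intervals on the deposited TPM scale (circles) and with median-of-ratios scaling (squares), with dashed lines at the medians of all genes. All 8 points lie below 0, and after scaling all 8 intervals include 0.

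Levels per length ran in a similar order in both groups. The UMPS_BKO medians were 19.5 TPM for Dut, 6.88 for Rrm1, 6.85 for Rrm2, 5.37 for Dtymk, 4.41 for Rrm2b, 4.27 for Tk1, 1.58 for Tyms, 0.909 for Shmt1 and 0 for Dctd. The control medians were 48.9 TPM for Dut, 31.6 for Dtymk, 28.3 for Rrm2, 21.2 for Rrm1, 10.2 for Rrm2b, 10.03 for Tk1, 9.24 for Shmt1, 4.23 for Tyms and 0.478 for Dctd. In the controls the ranges of neighbours in this order overlapped, except that the highest Dctd value (2.26 TPM) was below the lowest Tyms value (2.85 TPM). In UMPS_BKO every pair of neighbours overlapped.

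The 9 genes did not move as a block across libraries. Their summed TPM was 98.3, 8.63, 132 and 26.3 in UMPS_BKO and 90.1, 250.3, 182 and 157 in controls. After scaling the sums were 87.3, 18.2, 172 and 40.5 in UMPS_BKO and 120.4, 139, 89.1 and 114 in controls, so replicate 3 of UMPS_BKO was then the highest of the 8 libraries. Dut per Dtymk was 1.52, 0, 8.0 and 0.210 in UMPS_BKO and 1.46, 1.47, 1.51 and 1.58 in controls. This ratio, singled out after its values were seen, was nearly the same in all controls and in UMPS_BKO replicate 1, and lay above or below them in the other three. Other ratios varied among the controls themselves. Dtymk per Rrm1 was 2.78, 1.24, 0.347 and 1.03 in UMPS_BKO and 3.17, 1.68, 1.21 and 1.76 in controls, and Tyms per Rrm1 was 0.224, 0.486, 0.248 and 0.125 in UMPS_BKO and 0.616, 0.449, 0.172 and 0.151 in controls. Over the 8 libraries, on the scaled log2 scale, Pearson's r was 0.91 between Rrm2 and Dut, 0.89 between Rrm2 and Tk1 and 0.87 between Rrm1 and Rrm2. It was 0.19 between Rrm1 and Dtymk, 0.53 between Rrm2 and Dtymk, 0.69 between Dut and Dtymk, and −0.21 to 0.19 between Shmt1 and the other seven genes tested. These values describe 8 libraries that share differences in composition and depth.

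**Figure D4:**
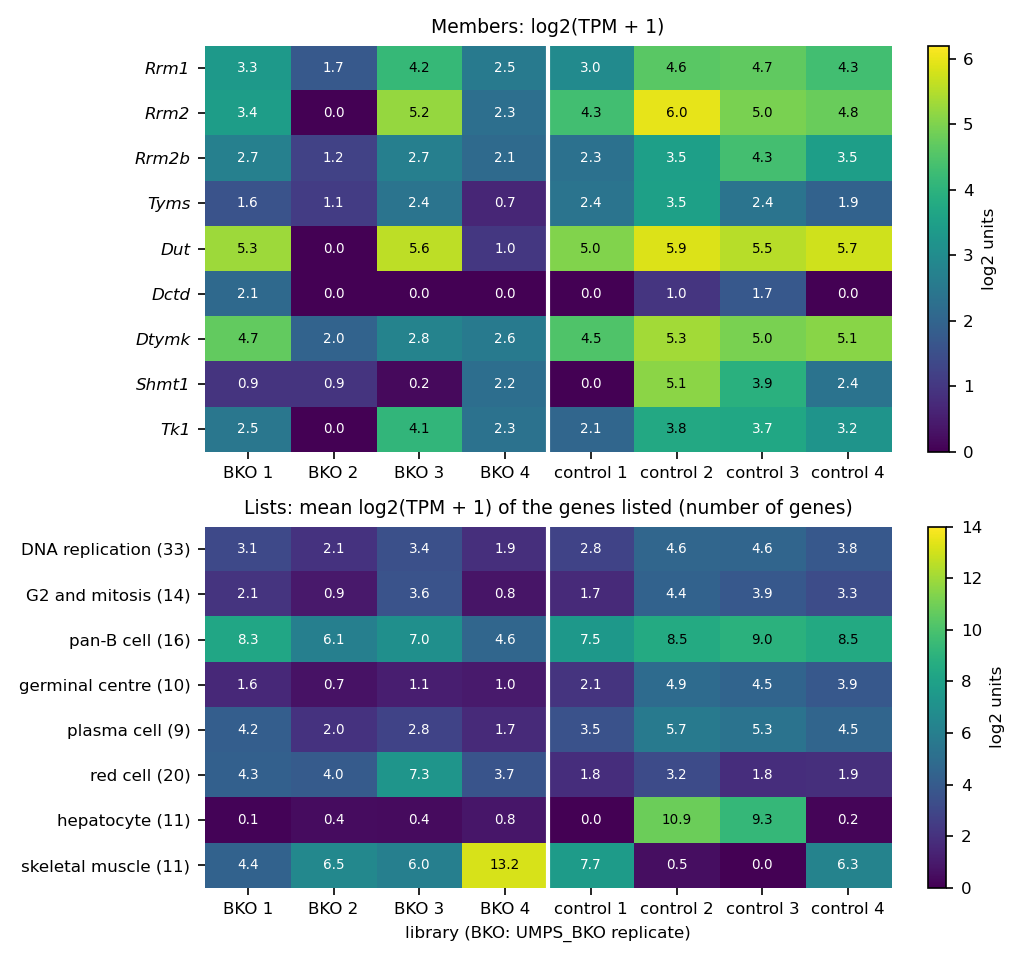
The upper map gives log2(TPM + 1) of each member and the lower map the mean log2(TPM + 1) of gene lists, by library. Among the UMPS_BKO libraries, replicate 3 has the highest Rrm2 and Tk1 levels and also the highest means of mitosis genes (3.57) and red cell genes (7.28).

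UMPS_BKO replicate 3, the library with high Rrm1, Rrm2, Dut and Tk1, had the highest means of mitosis and of red cell genes in its group. The mean log2(TPM + 1) of 14 G2 and mitosis genes was 2.12, 0.94, 3.57 and 0.79 in UMPS_BKO and 1.69, 4.38, 3.86 and 3.27 in controls. The replication mean set it apart less, at 3.08, 2.07, 3.43 and 1.87 in UMPS_BKO and 2.79, 4.61, 4.56 and 3.84 in controls, and the mean of E2F, Rb and cyclin genes was 3.04 there and 3.07 in UMPS_BKO replicate 1. The mean of 20 red cell precursor markers was 4.27, 4.03, 7.28 and 3.66 in UMPS_BKO and 1.81, 3.19, 1.83 and 1.90 in controls. All 20 red cell markers were above 0 in that library, and their summed share of TPM was 4.76%, beside 0.424% to 1.34% in the other UMPS_BKO libraries and 0.0193% to 0.0599% in controls. The mean log2(TPM + 1) of germinal centre B cell markers was 0.68 to 1.62 in UMPS_BKO and 2.08 to 4.88 in controls. For plasma cell markers it was 1.67 to 4.19 in UMPS_BKO and 3.51 to 5.72 in controls, so the groups overlapped. Of 10 germinal centre markers, 3, 8, 7 and 7 were at 0 in UMPS_BKO replicates 1 to 4 and 1, 0, 0 and 0 in controls. Of the 9 tested none passed (limma), and 8 were lower at an unadjusted p under 0.05, against 16.4% of all genes tested. Their median log2 difference was −2.69, and −2.08 after scaling. For 6 of the 9 all UMPS_BKO libraries lay below all controls, against 4.81% of all genes tested. Of 9 plasma cell markers 7 were tested and none passed (limma), with 6 lower at an unadjusted p under 0.05. Their median was −3.08, and −2.52 after scaling, and 1 of the 7 had no overlap between the groups. Of the 16 pan-B cell markers none passed (limma), and 12 had an unadjusted p under 0.05, against 17.4% of all genes tested in either direction. Their median was −2.05, −1.11 after scaling, and the groups overlapped for each. Red cell precursors and germinal centre B cells both divide, and the part of either in the levels of these enzymes was not tested.

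The 10 reference promoters of 8 members (RefSeq, GRCm38.p6, 250 bases before and 50 bases after the start; Rrm2b is named only) were searched for the core of the E2F site, bound by the factors that switch on S phase genes. The core was searched on both strands as TTCCCGC or in the form TTCGCGC or in the form TTGCCGC or in the form TTGGCGC. The CCAAT box, bound by NF-Y, was searched as the word CCAAT on both strands, and words of both kinds may overlap. An E2F word was present in the promoters of 4 members, Dtymk, Rrm1, Rrm2 and Shmt1, and in 9.57% of all 32851 promoters in the table. A CCAAT word was present for those 4 members and Dctd, and in 37.4% of all promoters. The promoters of Dut, Tyms and Tk1 held no word of either kind. The windows of Dut (chr2:125247265-125247564) and Shmt1 (chr11:60811216-60811515) lay inside the gene coordinates given above. Bases before the starts of those 2 genes were thus not searched. Over the libraries Dut and Tk1 had an r of 0.91 and 0.89 with Rrm2. The 3 promoters shown belong to the reductase pair, whose levels ran together over the libraries, and to Dtymk, whose level had an r of 0.19 with Rrm1 and of 0.53 with Rrm2, and capitals mark the matched words.
Rrm1 (chr7:102441445-102441744, plus strand): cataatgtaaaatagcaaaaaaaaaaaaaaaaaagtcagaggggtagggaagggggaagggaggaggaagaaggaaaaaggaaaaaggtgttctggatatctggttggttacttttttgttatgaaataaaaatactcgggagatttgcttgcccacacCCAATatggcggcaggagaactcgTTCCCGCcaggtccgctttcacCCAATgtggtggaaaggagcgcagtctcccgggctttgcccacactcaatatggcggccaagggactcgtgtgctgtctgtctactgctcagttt
Rrm2 (chr12:24708004-24708303, plus strand): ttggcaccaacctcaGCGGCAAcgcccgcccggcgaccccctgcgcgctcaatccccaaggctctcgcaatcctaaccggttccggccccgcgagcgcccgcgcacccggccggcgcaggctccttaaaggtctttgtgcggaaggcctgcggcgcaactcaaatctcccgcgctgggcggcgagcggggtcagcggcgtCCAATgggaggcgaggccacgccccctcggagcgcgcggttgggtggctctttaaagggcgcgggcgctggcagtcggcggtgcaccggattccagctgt
Dtymk (chr1:93801885-93802184, minus strand): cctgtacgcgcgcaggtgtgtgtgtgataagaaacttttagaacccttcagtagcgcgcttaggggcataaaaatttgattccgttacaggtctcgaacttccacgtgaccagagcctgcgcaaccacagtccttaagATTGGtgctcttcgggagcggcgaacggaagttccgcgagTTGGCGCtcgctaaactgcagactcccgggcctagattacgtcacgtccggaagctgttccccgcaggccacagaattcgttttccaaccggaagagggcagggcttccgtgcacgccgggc
The E2F word began 67 bases before the start in Rrm1, 72 in Dtymk and 235 in Rrm2, and a CCAAT word lay 45 and 91 bases before the start in Rrm1, 50 in Rrm2 and 112 in Dtymk. A match describes letters in these windows and is not evidence of binding.

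Other genes of the same chemistry were read from lists. The counts at an unadjusted p under 0.05 (limma) in this and the next paragraphs stand beside 17.4% of all genes tested, in either direction. Of 10 folate cycle genes, 8 were tested and none passed in either direction (limma; 2 at an unadjusted p under 0.05), with a median log2 difference of −1.07 and −0.52 after scaling. The folate enzymes Mthfd1l and Mthfd2 had log2 differences of −1.82 and −1.53, and Mthfd2 turned to 0.50 once pan-B cell level entered the fit as a covariate.

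Among 13 kinases of nucleosides and nucleotides, 12 were tested and none passed (limma; 3 at an unadjusted p under 0.05; median −1.34, and −0.67 after scaling). Dck, which salvages deoxycytidine, was at 20.5, 4.20, 17.3 and 0.803 TPM in UMPS_BKO and at 17.2, 74.5, 66.4 and 39.3 TPM in controls (log2 difference −2.49 ± 0.85, SE; limma, adjusted p = 0.283). The mitochondrial thymidine kinase Tk2 differed by −2.66. Ak1, the muscle-type adenylate kinase, was listed at 1042 TPM in UMPS_BKO replicate 4, the muscle-marked library, and at 0 to 25.5 TPM in the other seven.

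Of 15 enzymes that break down or clean nucleotides, 12 were tested and none passed (limma; 3 at an unadjusted p under 0.05; median −1.28, and −0.48 after scaling). Ada, which deaminates deoxyadenosine and adenosine, was at 1.72, 0, 0 and 0 TPM in UMPS_BKO and at 5.86, 47.8, 21.1 and 7.24 TPM in controls. All UMPS_BKO libraries lay below all controls, with a log2 difference of −3.61 ± 0.77 (SE; limma, adjusted p = 0.144) and −3.18 after scaling. It passed without UMPS_BKO replicate 1 (limma, adjusted p = 0.0355), where 2.8% of all genes were called lower. With array weights, which called 17.8% of all genes lower, Ada also passed (limma, adjusted p = 0.0230). The nucleotidase Nt5c and the dCTP-cleaning enzyme Dctpp1 differed by −2.61 and −2.68, and Nt5c passed without UMPS_BKO replicate 1 (limma, adjusted p = 0.0240). Samhd1, the dNTP hydrolase of resting cells, chosen for its role after its values were seen, was at 100.3, 47.4, 50.9 and 19.8 TPM in UMPS_BKO and at 73.3, 144, 149 and 109 TPM in controls.

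**Figure D5:**
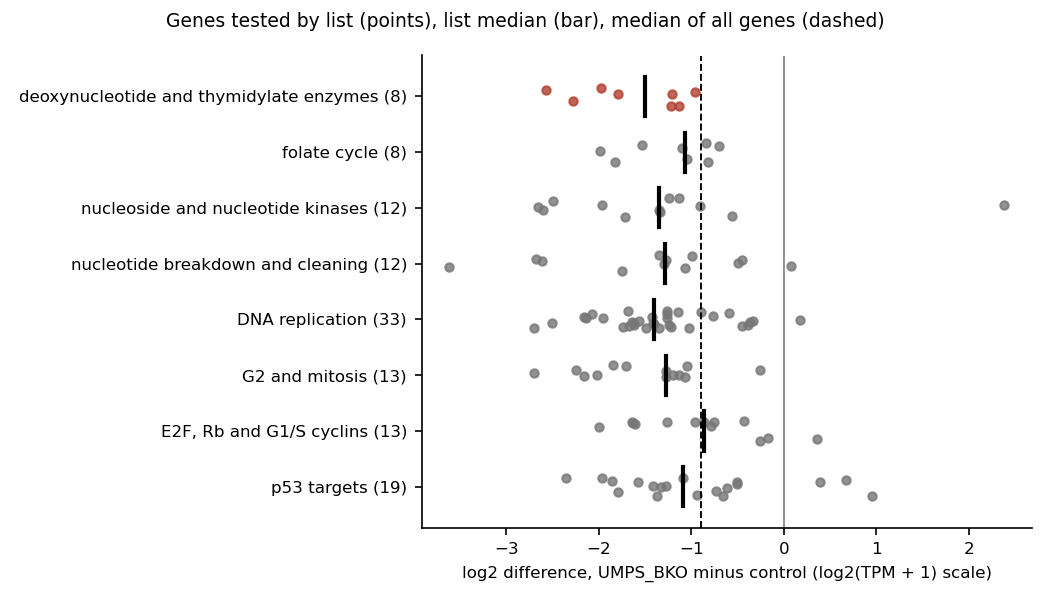
Each point is the log2 difference (UMPS_BKO minus control) of 1 tested gene, by list, with a bar at the list median and a dashed line at the median of all genes tested (−0.90). The 8 members have a median of −1.50, and DNA replication genes one of −1.40.

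All 33 DNA replication genes were tested, with none past the threshold (limma; 10 at an unadjusted p under 0.05, against 17.4% of all genes). Their median was −1.40, and −0.68 after scaling. Cdc45, a part of the replicative helicase, was at 0, 0, 0 and 0.758 TPM in UMPS_BKO and at 1.26, 20.9, 17.7 and 2.34 TPM in controls. Prim1, a primase subunit, was at 0.453, 3.68, 0.370 and 0.670 TPM in UMPS_BKO and at 4.54, 12.6, 5.46 and 9.04 TPM in controls. On the deposited TPM scale neither gene's UMPS_BKO range reached the lowest control, and this included the UMPS_BKO replicate 3 in which Rrm2 was high. After scaling the groups overlapped for Prim1. Of the 33 genes, 3 had all UMPS_BKO libraries below all controls on the deposited scale, against 4.81% of all genes tested. The log2 differences of Cdc45 and Prim1 were −2.69 and −2.07 (limma, adjusted p = 0.283 for each), and −2.17 and −1.35 after scaling. Mcm3, a helicase subunit, differed by −2.51. Of the 14 G2 and mitosis genes 13 were tested and none passed (limma; 1 at an unadjusted p under 0.05; median −1.27, and −0.58 after scaling), with Ccnb2, Plk1 and Cdk1 at −2.70, −2.16 and −1.84.

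The regulators of the G1 to S step lay at the level of all genes. Of 14 E2F, Rb and cyclin genes 13 were tested and none passed (limma; 1 at an unadjusted p under 0.05; median −0.86, and −0.21 after scaling). E2f1 was at 2.37, 0, 19.4 and 0 TPM in UMPS_BKO and at 6.02, 21.1, 8.11 and 11.3 TPM in controls, so that UMPS_BKO replicate 3 again lay among the controls. Ccna2 and Rbl1 differed by −1.64 and −1.61. Of 23 p53 targets apart from Rrm2b, 19 were tested and none passed (limma; 4 at an unadjusted p under 0.05; median −1.09, and −0.24 after scaling). Pmaip1, a death gene induced by p53, was at 7.68, 0, 0 and 0 TPM in UMPS_BKO and at 5.09, 10.6, 7.98 and 8.30 TPM in controls. It passed without UMPS_BKO replicate 1 (limma, adjusted p = 0.0309), where 2.8% of all genes were called lower. Trp53inp1 and Bbc3 differed by −1.97 and −1.85.

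The genes whose scaled levels were most like those of Rrm2 over the 8 libraries were Pqlc1, Ilvbl, Ints8, Acad10 and Nasp, a histone chaperone (Pearson's r 0.97 to 0.99). Those most like the mean of the 8 genes were Siah2, Alox5ap, Mad2l1, a mitotic checkpoint gene, Lsm8 and Bcl3 (r 0.96 to 0.99). Pqlc1, for example, was at 3.81, 0, 8.42 and 1.96 TPM in UMPS_BKO and at 5.98, 13.7, 10.3 and 6.87 TPM in controls. Being listed at 0 in UMPS_BKO replicate 2 was shared by 8 of these 10 genes and by 30.1% of all genes tested. Rrm2 was itself at 0 there and the members' mean was lowest there. Choosing genes by likeness to them favours such zeros, so the count is not a separate result.

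Control replicates 2 and 3 held hepatocyte and almost no muscle transcripts, unlike the other six libraries, and the labels give no batch. Without them, a comparison added after the data were seen, the log2 differences were −2.41 for Dut, −1.82 for Rrm2, −1.79 for Dtymk, −0.73 for Tyms, −0.70 for Rrm1, −0.70 for Rrm2b and −0.41 for Tk1 (limma, adjusted p = 0.998 for each). The median of all genes was then −0.45. With pan-B cell level as a covariate in the fit, the differences were −0.11 for Dut, −1.09 for Rrm2, −0.90 for Dtymk and −0.57 for Tyms. They were −0.29 for Rrm1, −0.49 for Rrm2b, −0.17 for Tk1 and −1.64 for Shmt1, beside a median of −0.30 for all genes. Standard errors ran from 0.70 (Dtymk) to 1.45 (Shmt1), and none passed (limma). This covariate used the deposited TPM scale, so each library's ribosomal RNA-like share entered it too. It also differed by group, at 4.62 to 8.30 in UMPS_BKO and 7.48 to 8.96 in controls. The part of B cell content in the differences was not tested.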

How the data were processed

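RNA from splenic B cells was sequenced in 8 libraries, 4 per group. The authors deposited 1 table of TPM, with a column per library that sums to 1000000. The build was GRCm38 and the tools included STAR 2.5.2b, Subread 1.5.2 with featureCounts, and bcl2fastq 2.20, per the submitters' processing notes. The sources used here do not say how TPM was computed, nor give annotation, strand setting or filters. TPM divides by the sum over all features, so a library rich in ribosomal RNA-like or mitochondrial transcripts reads lower for other genes.

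Columns were matched by library name. Coordinates and exon lengths came from GENCODE M21 (GRCm38), in which 49056 features had a length. Reads were recovered from the steps of low TPM multiplied by length, and 90.6% to 93.1% of values under 30 reads came out whole within 0.05 reads. Floors (3 reads) cover counting error only. No count model was run on them.

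Differences were fitted over all genes with TPM of at least 1 in at least 4 libraries, on log2(TPM + 1), by limma (version 3.58.1, R 4.3.3; eBayes, trend on, two-sided, Benjamini-Hochberg adjusted p under 0.05). A check on simulated data missed most of the smallest differences put in, so a gene that did not pass may still differ. Fold changes on this scale understate those of low genes. "Scaled" means divided by median-of-ratios size factors. Python 3.11.15 was used for the rest. Intervals are 95%.

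The members, lists and library exclusions were chosen with earlier results of these data known. The text names all members, up to 3 genes per pathway list with the smallest p, the 5 genes most correlated with Rrm2 and with the members' mean, and Umps. Some genes that this rule names are not reported here. Ak1, Samhd1 and the per-library gene values quoted were picked after values were seen. Alternatives were pseudocounts of 0.1 and 5, no filter, a mean TPM of at least 5, median-of-ratios and quantile scaling, leaving out mitochondrial and ribosomal RNA-like features, no trend, array weights, a replicate block, the pan-B cell mean as covariate, and libraries left out.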

Additional observations from a re-analysis of the deposited data

Results flagged for a closer look

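In UMPS_BKO, Dtymk was at 25.1 TPM in replicate 1 and at 5.87 TPM or less in the other three, a gap of 0.866 of the group's range. Dctd was at 3.32 TPM in UMPS_BKO replicate 1 and listed at 0 in the other three. In each case 1 library stood far from the other three of its group. Chance alone marks about 1 in 20 such groups, and 18 groups of 4 were examined.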

How the results depend on the processing

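No member was called higher under any of the 22 alternatives, and all members tested kept a negative log2 difference under each alternative that gave a value. Members called lower numbered 0, 2 with array weights (Dtymk and Shmt1), and 0 to 1 with each library left out in turn. Over all genes, 10 were lower and 4 higher. The lower calls became 5 with a pseudocount of 5, 1 with no filter, 6 with a mean TPM of at least 5, 6 after median-of-ratios scaling, 5 after quantile normalization, 5 without ribosomal RNA-like and mitochondrial features, 1906 with array weights, 23 with the replicate block and 1 with the pan-B cell covariate. They became 0 without control replicate 2 and UMPS_BKO replicate 4, 0 without UMPS_BKO replicates 2, 3 and 4 and 0 without control replicates 2 and 3, and 0 to 284 with each library left out, the highest without UMPS_BKO replicate 1. The higher calls became 1 with a pseudocount of 0.1, 0 with no filter, 1 without ribosomal RNA-like and mitochondrial features, 84 with array weights, 0 with the covariate, 0 without UMPS_BKO replicates 2, 3 and 4, 0 without control replicates 2 and 3, and 0 to 17 with each library left out. The members' median ranged from −1.87 with a pseudocount of 0.1 to −0.52 with quantile normalization. The median of all genes was −1.21 and −0.02 in those settings. Mthfd2 turned to 0.50 with the covariate. Of the 43 genes named, 22 values passed under an alternative only, 3 of them members' (Dtymk in both cases above, Shmt1). The others included Dck, Dctpp1, Cdc45, Prim1, Mcm3, Mthfd1l, Rbl1 and Trp53inp1 with array weights, and Tk2 without UMPS_BKO replicate 1. The cause was not tested.

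Samples that share a replicate number did not deviate together over the genes tested (correlations −0.35, −0.19, −0.03 and −0.09 for numbers 1 to 4). Deviations among 4 libraries of unlike composition cannot show whether the numbers pair samples. With the replicate block no member passed. Total recovered depth did not order the zeros: control replicate 3, the shallowest library by that total, had all 9 genes above 0. Dctd was at 0 in the deeper control replicate 4 and UMPS_BKO replicate 4. The total includes ribosomal RNA-like and mitochondrial reads. These took 60.5% and 19.2% of TPM in UMPS_BKO replicate 2, and 10.5% and 5.33% in control replicate 3. The part in the zeros of the depth left for other genes was not tested.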
